A study of Mus musculus with 6 samples.

Results

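Heat shock chaperones of the cytosol and the mitochondria were described in livers of mice that lack HLJ1, the heat shock protein 40 (HSP40) encoded by Dnajb4. The members are 46 listed genes of the HSP90, HSP70, HSP110 and small heat shock protein families, the chaperonins, their co-chaperones and the heat shock factors Hsf1 and Hsf2. A member was measured where the array has a probe set, a group of oligonucleotides against a transcript, that names that gene alone. This held for 43 of the 46 members, among 18193 genes in all. Hsp90ab1 and Hsf1 have no such probe set among those named here, and those of Ptges3 also name Ptges3-ps, so these 3 genes were not analysed.

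HSP70 proteins bind unfolded stretches of other proteins and release them in a cycle driven by ATP. J-domain proteins of the HSP40 family, HLJ1 among them, deliver clients and start the ATP hydrolysis, and HSP110 proteins and BAG proteins release the nucleotide. HSP90 receives clients from HSP70 through adaptor proteins, the TRiC chaperonin folds actin, tubulin and other proteins in a closed chamber, and the genes of many of these proteins are switched on by the heat shock factor HSF1, which binds repeated GAA units in their promoters.

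As labelled, the arrays compare liver RNA of 3 wild-type (Dnajb4+/+) and 3 HLJ1 knockout (Dnajb4-/-) mice. There is 1 Affymetrix mouse genome expression array for each. By the labels all were male C57BL/6 mice of 6 to 8 weeks with no treatment named, and the knockout was made by gene targeting in embryonic stem cells, so that it is not limited to a cell type of the liver. The values are the authors' normalized intensities on a linear scale, averaged here over the probe sets of a gene on the log2 scale. Each difference is Dnajb4-/- minus Dnajb4+/+ on the log2 scale with its standard error (SE), and a gene was called where limma's p, adjusted over all genes tested, was under 0.05.

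Several properties of the arrays moved with the genotype. Xist, the RNA that silences an X chromosome in female cells, ranged from 364 to 402 for wild type and from 14.3 to 17.1 for the knockout, which goes against the male label of the wild-type arrays. The Y-linked Eif2s3y ranged from 62.6 to 72.3 for wild type and from 77.4 to 81.3 for the knockout. Uty and Kdm5d, also Y-linked, were dim in all arrays, at 18.9 to 26.4, below the array medians of 31.8 to 32.5. All 3 Dnajb4+/+ arrays were alike in this, so no comparison could be made without them. Of 15 genes known to be higher in female liver 14 were lower in Dnajb4-/- livers, of 9 male-high genes 8 were higher, and of 18 clock genes 5 were higher and 12 lower. The 3 male-high genes farthest from 0, Elovl3, Ugt2b38 and Hsd3b5, had wild-type means of 3187, 773 and 3740. Their knockout means were 7562, 1541 and 5957. The 3 female-high genes farthest from 0, Sult3a1, Cyp2b9 and Sult2a2, had log2 differences of -7.02, -5.55 and -5.48. The 3 clock genes farthest from 0, Dbp, Usp2 and Ciart, were at -3.05, -2.14 and -1.67. Whether the wild-type RNA came from males, females or both was not tested. The summed intensity of 18 skeletal muscle markers, 13 of them called lower, was 1024 to 1090 for wild type and 558 to 578 for the knockout. That of 8 Kupffer cell and macrophage markers, 7 of them called lower, was 4378 to 4590 and 3345 to 3499. Sums were also lower for 7 liver endothelial markers, 5 of them called lower (1454 to 1508 and 1236 to 1315), 6 neutrophil markers, 2 called (244 to 256 and 206 to 219), and 9 markers of stellate cells and fibroblasts, 1 called (1951 to 1973 and 1755 to 1817). The sum of 10 hepatocyte markers was 140567 to 141267 and 137400 to 138105. Sums were higher for 4 pancreatic acinar markers, 1 called higher (654 to 674 and 917 to 982). Most of this sum was Cela1, with means of 603 and 873, and the other acinar markers were dim and overlapped between the genotypes. Sums were also higher for 5 cholangiocyte markers, 1 called higher (132 to 148 and 151 to 157). Sums of smooth muscle, erythroid, lymphocyte and adipocyte markers overlapped between the genotypes. The lowest value in the table is 3.90, so that no marker could read 0. The ratio of 3' to 5' signal of Gapdh, a sign of RNA integrity, was 1.17 ± 0.0134 in Dnajb4+/+ and 1.45 ± 0.0265 in Dnajb4-/- arrays (SD, n = 3). That of Actb was 2.65 ± 0.0485 in Dnajb4+/+ and 3.17 ± 0.0602 in Dnajb4-/- arrays (SD, n = 3). The part of any of these in the results that follow was not tested, and none of them, sex included, can be told apart from genotype. The targeted gene, Dnajb4, read 137 ± 5.51 and 124 ± 6.85 (SD, n = 3) over its 3 probe sets, a log2 difference of -0.14 (adjusted p = 0.145). Its brightest probe set read 589 ± 23.5 and 466 ± 13.6, a difference of -0.34 (adjusted p = 0.0100 over all probe sets). The deleted part of the gene is not given in the sources used here, so the signal that is left does not check the labels.

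Of the 43 measured chaperone genes, 9 were called higher in Dnajb4-/- livers and 2 lower, and 32 missed the threshold. The 9 are 20.9% of the measured members, beside 5.09% of all genes tested that were called higher. The 2 are 4.65%, beside 9.57% of all genes called lower. The higher genes were the inducible HSP70 gene Hspa1b, the HSP110 genes Hsph1, Hspa4l and Hspa4, the HSP90 gene Hsp90aa1, the HSP90 co-chaperones Chordc1 and Stip1 and the TRiC subunits Cct3 and Cct4. The lower genes were Fkbp5 and Bag4, a co-chaperone of HSP90 and of HSP70. None differed by 2-fold or more. All 3 Dnajb4-/- arrays lay above all Dnajb4+/+ arrays for 16 members (37.2%), beside 16.1% of all genes, and below them for 5 (11.6%), beside 19.4%. The median log2 difference of the members was 0.05, and that of all genes was 0.0075. With the dim genes, those below the median level, left out, 36 members and 9097 genes remained. Of these, 11 members and 1117 genes were called higher, and 4 members and 2124 genes lower. The share of all genes called was larger in this new fit, whose variance model and adjustment used the 9097 genes alone. How much of this goes with the level of the genes was not tested.

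**Figure D1:**
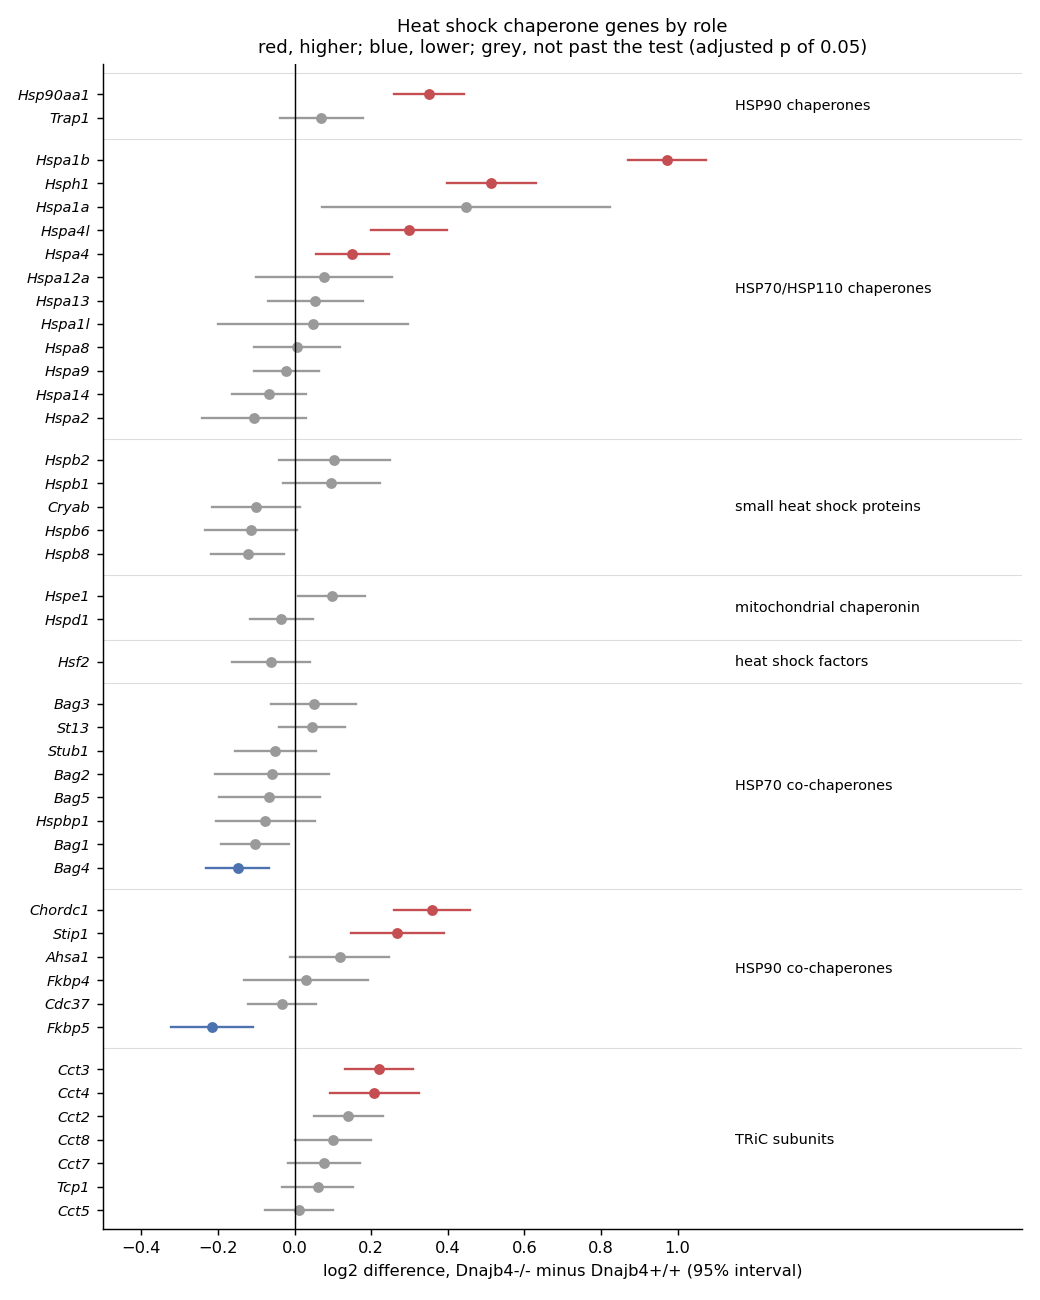
Log2 difference of the 43 measured chaperone genes, Dnajb4-/- minus Dnajb4+/+ livers, grouped by role. Points are the differences and lines their 95% intervals from limma (n = 3 arrays for each genotype), in red for the 9 genes called higher, in blue for the 2 called lower and in grey for the 32 not called; the calls lie mostly among HSP70 and HSP110 genes, HSP90 co-chaperones and TRiC subunits, and none of the 5 small heat shock protein genes is called.

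**Figure D2:**
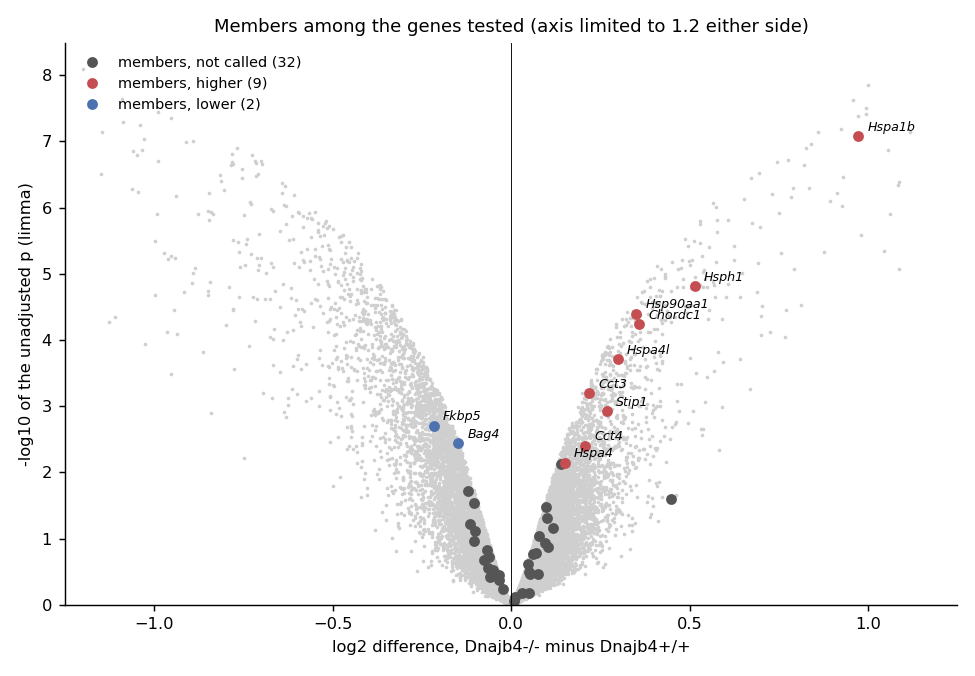
Members (large points) among all genes tested (small grey points), with the log2 difference on the horizontal axis and -log10 of the unadjusted p from limma on the vertical axis. The horizontal axis ends near 1.2 on either side, which leaves out 52 genes that are not members; Hspa1b stands farthest from 0 among the members at 0.97.

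HSP70 and HSP110 genes held the largest differences, with 4 of 12 called higher and 0 lower by limma; at an unadjusted p under 0.05, 5 were higher and 0 lower, and the methods' t-test (unpaired, run on the same values) gave 3 and 0. Hspa1b encodes the stress-inducible HSP70 of the cytosol. It read 479, 467 and 501 in the Dnajb4+/+ arrays and 946, 966 and 927 in the Dnajb4-/- arrays. The genotypes lay far apart, with nearly equal values within each. The log2 difference was 0.97 (SE 0.04, 95% interval 0.87 to 1.07, adjusted p = 3.0e-05), or 1.96-fold. Its 3 probe sets differed by 0.94 to 1.00, and each passed on its own.

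Hspa1a, the neighbouring gene on chromosome 17 for nearly the same protein, has 1 probe set, which was dim. It read 11.7, 14.8 and 16.7 in Dnajb4+/+ and 16.7, 19.0 and 23.1 in Dnajb4-/- arrays. The arrays of the genotypes met at 16.7, and the difference of 0.45 (SE 0.16, interval 0.07 to 0.82, adjusted p = 0.111) did not pass. Since the transcripts of Hspa1a and Hspa1b are near-identical, the signal that the array names Hspa1b may hold RNA of both, and how it divides between them is uncertain.

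The stretch of 150 bases before the start of Hspa1b is shown because this gene had the largest difference and because its promoter holds a pair of heat shock units. The sequence comes from RefSeq, in build GRCm38.p6, chr17:34959239-34959388 on the minus strand. It is written 5′ to 3′ and ends at the last base before the transcription start, with the units in capitals.
Hspa1b: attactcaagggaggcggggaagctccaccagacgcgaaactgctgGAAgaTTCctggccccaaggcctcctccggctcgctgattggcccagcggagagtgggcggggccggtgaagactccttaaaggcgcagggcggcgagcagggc
The same stretch of Hspa1a is identical at 149 of 150 bases and holds the same pair, 104 to 97 bases before the start.

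Hsph1 encodes HSP105, an HSP110 protein that exchanges the nucleotide of HSP70. It read 298, 274 and 297 in Dnajb4+/+ and 401, 425 and 416 in Dnajb4-/- arrays. The lowest knockout array was well above the highest wild-type array. The difference was 0.51 (SE 0.05, interval 0.40 to 0.63, adjusted p = 9.1e-04), or 1.43-fold, and both probe sets passed, at 0.50 and 0.52. Its promoter is shown because it is the other called member with a pair of units. RefSeq gives this gene more than 1 start; the stretch is at chr5:149636316-149636465 on the minus strand and holds the pair 54 to 47 bases before the start.
Hsph1: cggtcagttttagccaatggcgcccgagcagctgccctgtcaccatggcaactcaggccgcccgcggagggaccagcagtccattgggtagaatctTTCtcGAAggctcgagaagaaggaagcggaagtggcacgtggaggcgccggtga

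The other HSP110 genes, Hspa4l and Hspa4, had smaller differences. Hspa4l read 94.99, 96.1 and 94.6 in Dnajb4+/+ and 113, 117 and 122 in Dnajb4-/- arrays. The difference was 0.30 (SE 0.04, adjusted p = 0.00459), and the genotypes did not overlap. Of its 5 probe sets 3 passed as higher, at 0.35, 0.38 and 0.47. Hspa4 read 325, 311 and 320 in Dnajb4+/+ and 363, 354 and 345 in Dnajb4-/- arrays. Its difference of 0.15 (SE 0.04, adjusted p = 0.0490) was just past the threshold. It rested on 1 of 4 probe sets, which read 573 ± 28.6 and 739.5 ± 54.4 (SD, n = 3; 0.37, adjusted p = 0.0214), while the brightest read 1026 ± 45.2 and 1019 ± 39.9 (-0.01). With any 1 of the 6 arrays left out, Hspa4 did not pass (adjusted p = 0.0764 to 0.129).

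**Figure D3:**
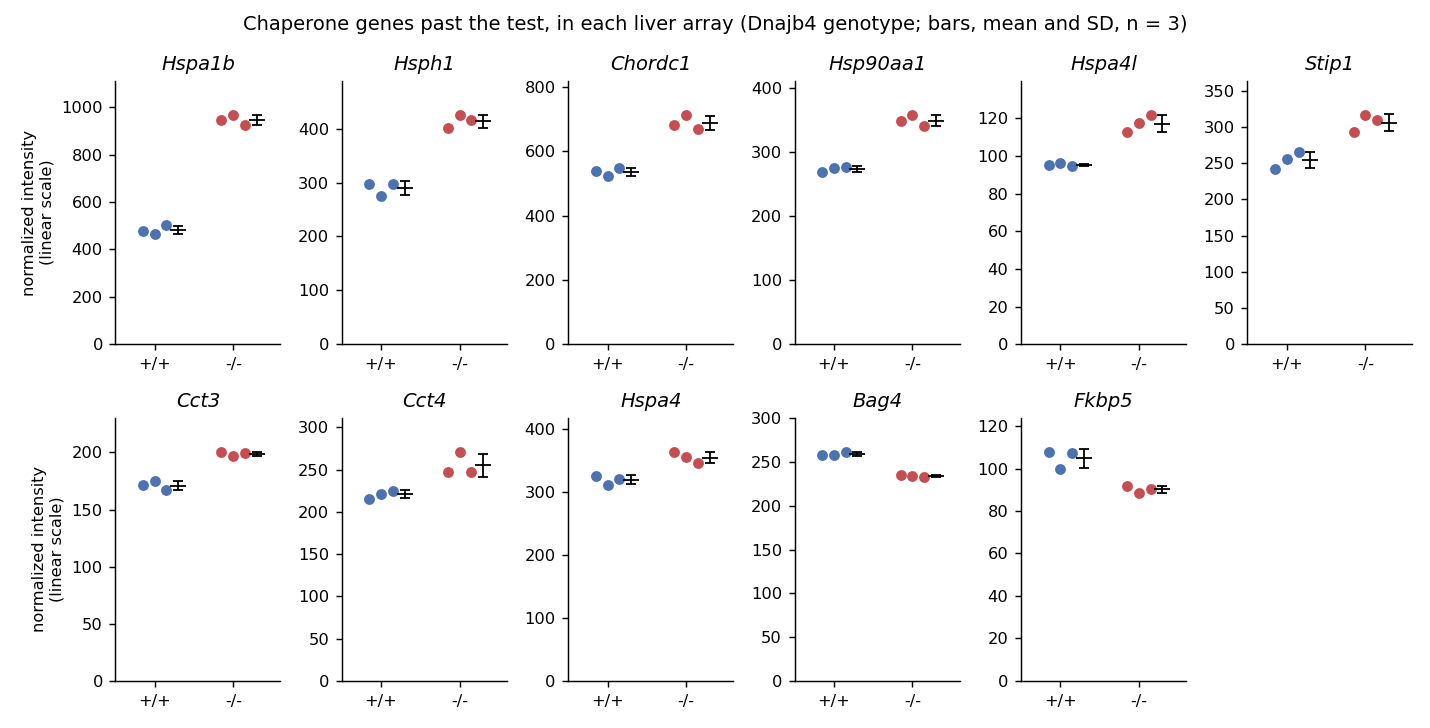
Normalized intensity on a linear scale of the 11 called chaperone genes in each of the 6 liver arrays, from the largest rise to the largest fall. Points are arrays (blue, Dnajb4+/+; red, Dnajb4-/-), and the bars beside them give the mean and SD (n = 3); in every panel the genotypes do not overlap, and the gap is widest for Hspa1b (467 to 501 against 927 to 966).

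The constitutive HSP70 of the cytosol, Hspa8, did not pass at gene level. It read 1259, 1225 and 1325 in Dnajb4+/+ and 1252, 1328 and 1247 in Dnajb4-/- arrays, a difference of 0.0068 (interval -0.11 to 0.12, adjusted p = 0.943). Its 4 probe sets did not move together. The brightest read 5944 ± 127 and 7134 ± 276 (SD, n = 3; 0.26, adjusted p = 0.0216), and the dimmest read 36.3 ± 7.40 and 26.5 ± 1.36 (-0.44, adjusted p = 0.0885). The gene-level value gives these probe sets equal weight.

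Hspa13, an HSP70 of the microsomes, differed by 0.05 at gene level (adjusted p = 0.548). Its brightest probe set alone read 506 ± 30.9 and 636 ± 38.0 (SD, n = 3; 0.33, adjusted p = 0.0271). Hspa14, an HSP70 that acts at the ribosome, differed by -0.07 (adjusted p = 0.334), and its brightest probe set read 166 ± 15.7 and 121 ± 2.08 (-0.45, adjusted p = 0.0116). These probe sets point in opposite directions. For Hspa9, the mitochondrial HSP70, the means were 237 and 234 and the interval of the difference ran from -0.11 to 0.06. Hspa2 (-0.11), Hspa12a (0.08) and Hspa1l (0.05) were dim, with means of 40.3 or less, and did not pass.

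Hsp90aa1 encodes the stress-inducible HSP90 of the cytosol. It read 269, 276 and 277 in Dnajb4+/+ and 350, 358 and 342 in Dnajb4-/- arrays. The knockout arrays were all higher, by 0.35 (SE 0.04, interval 0.26 to 0.44, adjusted p = 0.00163), or 1.28-fold. Of its 5 probe sets 4 passed as higher, among them the brightest at 3800 ± 83.4 and 5281 ± 164 (SD, n = 3; 0.47), and the exception was at 28.5 and 28.0. Trap1, the mitochondrial HSP90, had means of 698 and 732 and did not pass (0.07, adjusted p = 0.356).

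HSP90 co-chaperones moved in different directions, with 2 of 6 higher and 1 lower. Chordc1 encodes an HSP90-binding protein that is also known as morgana. It read 538, 523 and 547 in Dnajb4+/+ and 682, 712 and 669 in Dnajb4-/- arrays, without overlap. The difference was 0.36 (SE 0.04, adjusted p = 0.00196), or 1.28-fold. Stip1 encodes HOP, the adaptor that passes clients from HSP70 to HSP90. It read 242, 256 and 265 in Dnajb4+/+ and 293, 316 and 310 in Dnajb4-/- arrays. The difference was 0.27 (SE 0.05, adjusted p = 0.0154). Stip1 did not pass without Dnajb4+/+ replicate 1, Dnajb4-/- replicate 2 or Dnajb4-/- replicate 3 (adjusted p = 0.0541 to 0.0563).

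Fkbp5 encodes FKBP51, a prolyl isomerase in HSP90 complexes with steroid receptors, whose gene is itself induced by glucocorticoids. It read 108, 99.8 and 107 in Dnajb4+/+ and 92.0, 88.6 and 90.3 in Dnajb4-/- arrays. All knockout arrays were lower, by a log2 difference of -0.22 (SE 0.04, adjusted p = 0.0215). The brightest of its 3 probe sets read 1113 ± 20.3 and 830 ± 11.4 (SD, n = 3; -0.42, adjusted p = 0.00224), and the dimmest was near the lowest values of the arrays at 5.30 and 5.91. Of the arrays, only Dnajb4+/+ replicate 2 could be left out with the call kept (adjusted p = 0.0502 to 0.0785 without each of the others). Among 14 glucocorticoid-induced genes outside the members 5 were higher and 4 lower, with the metal-binding Mt2 (-3.16) and Mt1 (-1.99) and the clock gene Per1 (-1.03) the farthest from 0. The 5 higher genes lay at 0.22 to 0.51.

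The remaining HSP90 co-chaperones did not pass. Fkbp4, which encodes FKBP52, had means of 86.3 and 88.1 (0.03). Ahsa1, an activator of the HSP90 ATPase, had 197 and 214 (0.12), and Cdc37, which brings kinases to HSP90, had 159 and 155 (-0.03).

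HSP70 co-chaperones were called in 1 of 8 cases, as lower, and 6 of the 8 means were below wild type, beside 8653 of all 18193 genes. Bag4 encodes a BAG protein that binds the ATPase domain of HSP70. It read 258, 257 and 261 in Dnajb4+/+ and 235, 234 and 232 in Dnajb4-/- arrays. The genotypes did not overlap, and the difference was -0.15 (SE 0.03, adjusted p = 0.0321). It rested on 1 of 3 probe sets (340 ± 1.89 and 278 ± 7.38; -0.29, adjusted p = 0.00998), as the brightest read 370 ± 20.7 and 359 ± 7.89 (SD, n = 3; -0.04). Bag4 did not pass with any 1 array left out (adjusted p = 0.0696 to 0.0944) or after quantile normalization (-0.10, adjusted p = 0.103).

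The related Bag1 read 1138, 1108 and 1145 in Dnajb4+/+ and 1042, 1075 and 1040 in Dnajb4-/- arrays. These do not overlap, and the difference of -0.10 did not pass (adjusted p = 0.119), though it did under 3 of 17 alternatives. Bag3, the BAG protein induced by heat shock, had means of 438 and 453 (0.05, adjusted p = 0.534). Bag2 (-0.06), Bag5 (-0.07), the nucleotide exchange factor Hspbp1 (-0.08), the HSP70-interacting protein St13 (0.05) and the ubiquitin ligase Stub1 (-0.05), known as CHIP, did not pass either.

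The 7 TRiC subunits among the members all had means above wild type, beside 9540 of all 18193 genes, and 2 were called. Cct6a, a subunit outside the members, had means of 2122 and 2236 and was not called (0.075, adjusted p = 0.210). It is counted with the further chaperones below. The median of the 7 was 0.10. The number called was 3 after quantile normalization or centring on the brighter probe sets, and 1 without probe sets that can match several transcripts or with the brightest probe set alone. Cct3 read 171, 175 and 167 in Dnajb4+/+ and 200, 197 and 200 in Dnajb4-/- arrays. The difference was 0.22 (SE 0.04, adjusted p = 0.0103), and 4 of its 7 probe sets passed as higher. Another, at means of 236 and 226, went the other way and did not pass (-0.06, adjusted p = 0.596). Cct4 read 216, 221 and 225 in Dnajb4+/+ and 247, 271 and 247 in Dnajb4-/- arrays, a difference of 0.21 (SE 0.05, adjusted p = 0.0337).

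The probe sets of Cct4 did not move by like amounts. Its brightest read 1991 ± 17.9 and 2130 ± 68.7 (SD, n = 3; 0.10, adjusted p = 0.247) and the next 1685 ± 15.2 and 1693 ± 31.96 (0.01), while 2 of the 7 passed, at 0.33 and 0.37. With any 1 array left out Cct4 did not pass (adjusted p = 0.0589 to 0.108). Cct2 read 1439, 1406 and 1396 in Dnajb4+/+ and 1557, 1591 and 1527 in Dnajb4-/- arrays. It lay just outside the threshold, at 0.14 (SE 0.04, adjusted p = 0.0506), and passed under 8 of 17 alternatives. Of its 3 probe sets 1 passed, at 0.35 (adjusted p = 0.0271). The brightest was at 0.09 (adjusted p = 0.226) and the remaining one at -0.03 (adjusted p = 0.777). Cct8 (0.10), Cct7 (0.08) and Tcp1 (0.06) had no overlap between the genotypes and did not pass, and Cct5 differed by 0.01.

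Small heat shock proteins, which hold unfolded proteins without ATP, gave 0 calls among 5 with limma, 0 with the methods' t-test and 1 at an unadjusted p under 0.05, Hspb8. Their median was -0.10. Hspb8 read 434, 426 and 446 in Dnajb4+/+ and 390, 399 and 410 in Dnajb4-/- arrays. The genotypes did not overlap, and the difference of -0.12 did not pass (SE 0.04, adjusted p = 0.0925). It passed as lower under 4 of 17 alternatives, among them that without probe sets that can match several transcripts (-0.25, adjusted p = 0.0143). Of its 3 probe sets the brightest read 1986 ± 70.7 and 1875 ± 55.9 (-0.08) and the next 446 ± 17.4 and 334 ± 10.9 (SD, n = 3; -0.42, adjusted p = 0.00453). The dimmest went the other way, at 92.9 ± 1.06 and 102 ± 2.52 (0.14, adjusted p = 0.114). Hspb1, the gene of HSP25, had means of 338 and 361 (0.10, interval -0.03 to 0.22). Hspb2 (0.10), Hspb6 (-0.11) and Cryab (-0.10), which are abundant in muscle, overlapped between the genotypes, beside the lower sum of skeletal muscle markers given above. Fewer cells of a type and less RNA per cell cannot be told apart in whole liver.

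**Figure D4:**
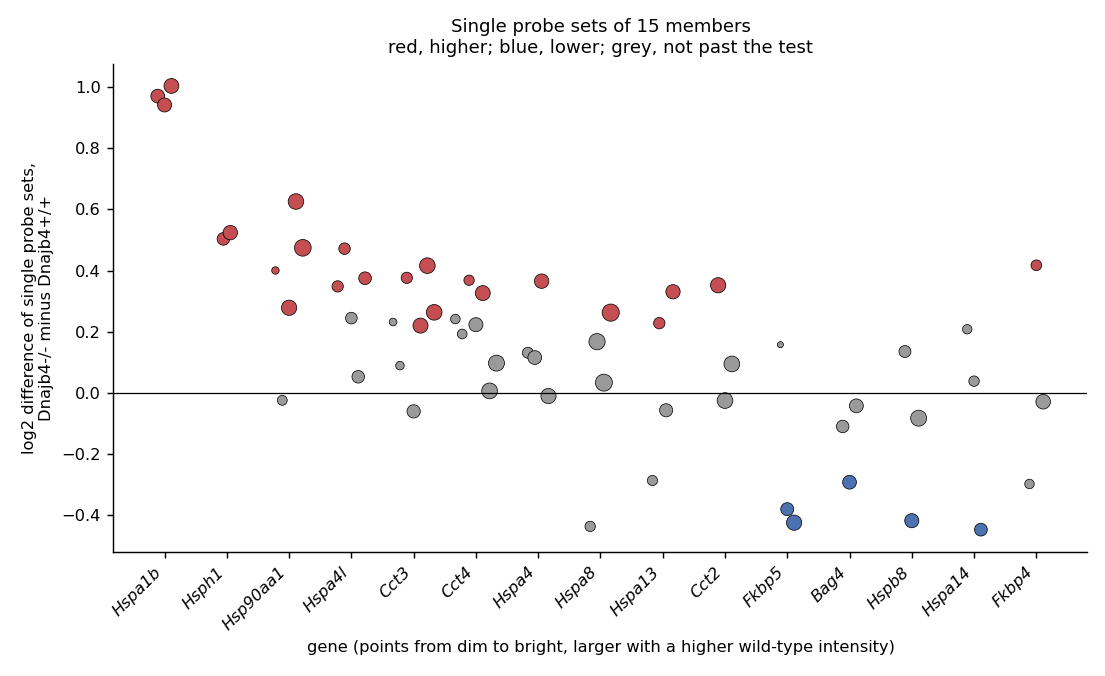
Log2 difference of single probe sets, Dnajb4-/- minus Dnajb4+/+ livers, for the 15 chaperone genes with several probe sets of which at least 1 was called. Points run from dim to bright within a gene and grow with the wild-type intensity, in red where called higher, blue where called lower and grey where not called. The probe sets of Hspa1b and Hsph1 lie close together. Those of Hsp90aa1, Hspa4, Hspa8, Hspa13, Hspa14, Hspb8, Fkbp4, Fkbp5, Cct2 and Cct3 lie on both sides of 0.

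Over all members there were 108 probe sets, of which 26 were called higher and 5 lower, beside 3.91% and 6.51% of all probe sets. No member had probe sets called in both directions. Of the 29 members with several probe sets, all were called in the same direction for 2, Hspa1b and Hsph1. Some were called and others not for 13, and none for 14.

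The genes of the mitochondrial chaperonin were not called. Hspd1, the gene of HSP60, read 5050, 4967 and 4970 in Dnajb4+/+ and 4845, 4909 and 4880 in Dnajb4-/- arrays. The difference was -0.03 (SE 0.03, adjusted p = 0.566). Hspe1, the gene of its lid HSP10, read 1893, 1826 and 1884 in Dnajb4+/+ and 1977, 2017 and 1997 in Dnajb4-/- arrays, a difference of 0.10 (SE 0.04, adjusted p = 0.132). The arrays of these genes did not overlap between the genotypes, in opposite directions. Hspe1 passed under 5 of 17 alternatives: quantile normalization, centring on the brighter probe sets, an offset of 16, dim genes left out and a trended, robust variance (0.10 to 0.13, adjusted p = 0.00749 to 0.0467). Hsf2, the measured heat shock factor, had means of 39.4 and 37.8 and did not pass (-0.06, adjusted p = 0.387).

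Hspd1 and Hspe1 share a promoter and face away from each other on chromosome 1. It is shown as the member promoter with the longest run of heat shock units, and was chosen after its values were seen. The stretch is at chr1:55087998-55088147 on the plus strand of GRCm38.p6, from RefSeq, with the 4 units in capitals, 89 to 72 bases before the start of Hspe1.
Hspe1: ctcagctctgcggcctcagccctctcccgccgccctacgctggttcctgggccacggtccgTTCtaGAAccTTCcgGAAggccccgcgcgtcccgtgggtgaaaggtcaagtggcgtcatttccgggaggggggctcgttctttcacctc

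The 250 bases before the start were searched on both strands for GAANNTTC and TTCNNGAA, where N is any base, and for 3 units in a row, GAANNTTCNNGAA or TTCNNGAANNTTC, which contain the former. RefSeq gave 41 such windows for 34 of the measured members. Any of these motifs was found in 31.7% of the members' windows and in 12.8% of all 32851 windows, and 3 units in a row in 2 member windows, those of Hspd1 and Hspe1, and in 0.466% of all windows. Of 8 called members with a window 2 held a motif, Hspa1b and Hsph1. Motifs also lay before Hspa1a, Cct2, Hspb1, Hspb6, Fkbp4, Cct5, Cdc37 and Stub1, which were not called. A match of letters is a description and does not show that a factor binds there. Inexact or more distant units were not searched for, so a gene without a motif here may still hold an element. The windows of Hsph1 overlap, as do those of Hspd1 and Hspe1, so the same motif counts in more than 1 member window.

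**Figure D5:**
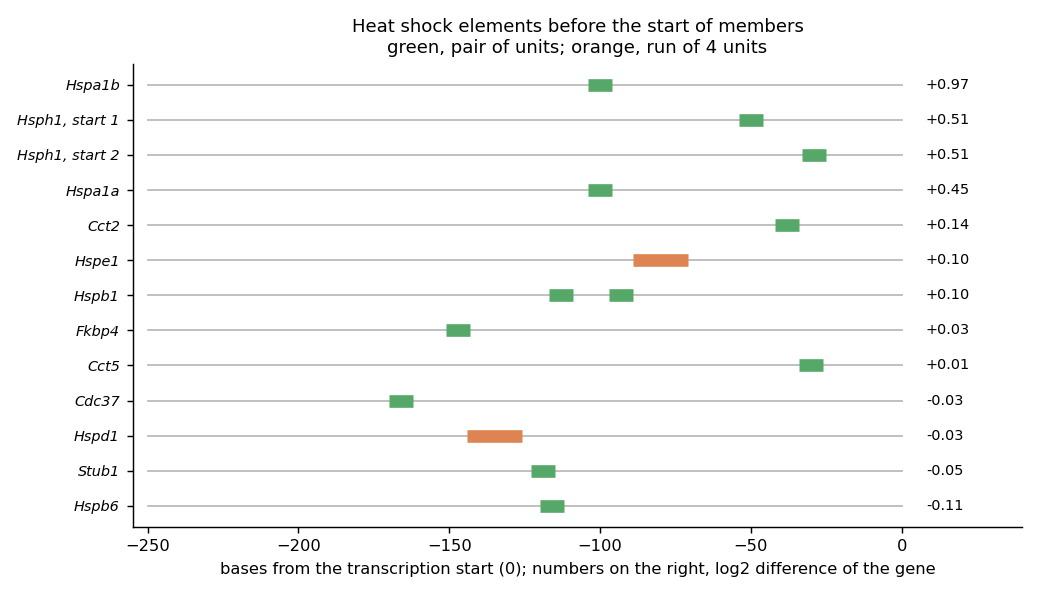
Position of heat shock motifs in the 250 bases before the transcription start of the 12 chaperone genes that hold one, with the log2 difference of each gene (Dnajb4-/- minus Dnajb4+/+) on the right and 2 starts shown for Hsph1. Green marks are pairs of units and orange marks runs of 4 units; the genes are ordered by difference, from Hspa1b at 0.97 to Hspb6 at -0.11, and the runs of 4 lie before Hspe1 at 0.10 and Hspd1 at -0.03.

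Genes of the same pathways that are not members were counted from further lists. Of 5 measured HSF1 targets outside the members, 1 was higher and 1 lower. Dnaja1, an HSP40 gene, rose from 2333 ± 36.5 to 2650 ± 61.5 (SD, n = 3; 0.18, adjusted p = 0.0216), and Mrpl18, a mitochondrial ribosomal protein gene, fell from 749.7 ± 6.60 to 659 ± 1.23 (-0.19, adjusted p = 0.0138). Dnajb1 (-0.04), Zfand2a (0.0055) and the collagen chaperone gene Serpinh1 (-0.17) did not pass. None of 3 other regulators of the heat shock response passed, with Hsbp1 at -0.10 and Hsf5, which was dim, at 0.11.

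Among 23 further chaperones and co-chaperones limma called 0 higher and 6 lower, against 2 and 4 with the methods' t-test and 3 and 6 at an unadjusted p under 0.05, the farthest from 0 being Sgtb (-0.30), Ruvbl2 (-0.29) and Fkbp8 (-0.26). After centring on the brighter probe sets 3 of these 23 were higher and 5 lower. Of 6 prefoldin subunits, which hand actin and tubulin to TRiC, Pfdn2 was lower (-0.36, adjusted p = 0.00503). Of 12 genes for mitochondrial import, co-chaperones and proteases, the protease subunit gene Clpx was higher, at 325 ± 18.0 and 493 ± 28.2 (SD, n = 3; 0.60, adjusted p = 0.00114). Grpel2, a nucleotide exchange factor of mitochondrial HSP70, was lower, at 427 ± 5.58 and 273 ± 12.8 (-0.65, adjusted p = 2.6e-04), as was the J-domain gene Hscb (-0.39). Cirbp, which is induced by cold, was lower at 94.5 ± 7.20 and 74.5 ± 1.05 (-0.34, adjusted p = 0.0106).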

How the data were processed

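Per the labels and the paper's methods, total liver RNA was hybridised to Affymetrix mouse genome arrays. The authors processed the deposited intensities in GeneSpring by GCRMA with global median centring; versions are not given in the sources used here. The table holds 45101 probe sets with linear values from 3.90 to 33106 and array medians of 31.8 to 32.5. After 64 controls were left out, the log2 values of 34945 probe sets with a single gene symbol were averaged over each of 18193 genes. Gene identifiers were in RefSeq for 99.4% of them. The test between genotypes was that of limma 3.58.1 under R 4.3.3 (lmFit, eBayes, two-sided, no filter), with Benjamini-Hochberg adjustment over all genes; probe sets were fitted in the same way. The procedure was tested on simulated data. Promoter windows came from RefSeq (GRCm38.p6). Protein sequences were not used here. Python 3.11.15, pandas 2.3.3 and matplotlib 3.10.9 were used.

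The members and gene lists were chosen with earlier results of these data known. All members are accounted for, each called member is given in every array, and other lists are named by at most 3 of their called genes, those farthest from 0, or at most 2 genes where none was called. The uncalled HSF1 targets, Cct6a, the single probe sets and the Hspe1 promoter were added after their values were seen. The labels call the arrays biological replicates of independent mice, and the number of arrays limits the precision. Whether each Dnajb4+/+ array holds RNA of a single mouse or of several, given its Xist and Eif2s3y signal, was not tested. If of several, the SE and adjusted p would not measure the spread between single mice. The alternatives cover normalization, centring, offset, dim genes, the choice and averaging of probe sets, variance model, test, replicate block and each left-out array.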

Additional observations from a re-analysis of the deposited data

How the results depend on the processing

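Of the 11 called members, 5 passed under each of the 17 alternatives (Hspa1b, Hsph1, Hsp90aa1, Chordc1 and Hspa4l), and Cct3 lost its call only with the replicate number as a block (adjusted p = 0.0519). Of the 32 members not called, 24 were not called under any alternative. The number higher was 9, 11 after quantile normalization, centring on the brighter probe sets, with an offset of 16, with dim genes left out or with a trended, robust variance, 7 with the methods' t-test or without probe sets that can match several transcripts, 6 to 7 with an array left out, and 0 when a fold of 2 was required. The number lower was 2. It was 1 after quantile normalization or centring on the brighter probe sets, 4 with an offset of 16, with dim genes left out or with a trended, robust variance, 0 at a fold of 2, and 0 to 1 with an array left out. The median difference of the members was 0.05, 0.082 after centring on the brighter probe sets, and 0.034 to 0.067 with an array left out. With its brightest probe set, Hspa4 turned from 0.15 to -0.010 (adjusted p = 0.915). The cause of these changes was not tested. Over all genes, 926 were higher and 1741 lower (34.7% of calls higher), against 1502 and 1473 (50.5%) after centring on the brighter probe sets and 516 to 657 and 1036 to 1352 with an array left out.

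Same-numbered arrays of the genotypes did not deviate together (r = -0.02, -0.14 and 0.01 across genes). Differently numbered arrays gave r from -0.10 to 0.12. No pairing by replicate number was seen, and with 3 arrays for each genotype these values cannot exclude it. With the number as a block, 7 members were higher and 0 lower, and 505 genes were higher and 1024 lower.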
